A study of Mus musculus with 21 samples.

Results

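A set of 10 genes that write, copy, remove or protect DNA methylation was followed through nascent RNA, total RNA and the ratio of both in wild-type and Ddx6 KO mouse embryonic stem cells (ESCs). They are the 10 of 51467 genes in the count tables whose symbols are Dnmt3a, Dnmt3b, Dnmt3l, Dnmt1, Uhrf1, Tet1, Tet2, Tdg, Trim28 and Zfp57, each matched to 1 Ensembl identifier. The rule that picks them uses no measured value, but the genes were chosen with earlier results of these data known. All 10 were among the 14518 genes that could be tested, which had at least 3 CPM (read counts scaled to a common library size) in at least 3 libraries. DDX6 is an RNA helicase of P-bodies that acts in translational repression and mRNA decay, and the comparison asks how RNA production and RNA abundance of these genes differ when it is lost.

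The cells were ESCs of the V6.5 line, grown in medium with serum, LIF and the 2i inhibitors PD0325901 and CHIR99021. There were 7 cultures, of which 3 were wild type, 2 were Ddx6 KO clone 1 and 2 were Ddx6 KO clone 2. The KO lines were made from the parental line with CRISPR-Cas9 at the start of Ddx6 exon 7, and each clone is 1 line, so that a trait of the clone and the loss of Ddx6 cannot be told apart within it. All cultures, wild type included, were labelled with 500 µM 4-thiouridine (4sU) for 30 min, and the RNA was then split into a 4sU-enriched fraction, called nascent RNA here, and total RNA depleted of rRNA. The labels number the samples but do not say how separately they were grown, so p values measure only the spread between these samples, which may be technical.

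In mammals, DNMT3A and DNMT3B place methyl groups on unmethylated CpGs, and DNMT3L, which has no catalytic activity of its own, assists them. DNMT1 copies the pattern after replication, and UHRF1 brings it to hemimethylated DNA. TET1 and TET2 oxidize 5-methylcytosine, and TDG excises the oxidized bases. ZFP57 binds methylated imprint control regions and TRIM28 is the corepressor that it recruits. ESCs in 2i are known for low genome-wide methylation, with imprints largely kept.

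The study examined DDX6 as an effector of microRNAs, chiefly of the ESC-enriched family that shares 1 seed. Members of the family found in the reference used, which need not be all of them, and the full-seed matches in the 10 genes are shown. The mature sequences, from RefSeq on GRCm38.p6, have the seed (bases 2 to 8) in capitals:
mmu-miR-291a-3p: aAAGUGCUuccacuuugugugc
mmu-miR-294-3p: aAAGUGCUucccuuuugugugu
mmu-miR-295-3p: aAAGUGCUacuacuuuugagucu
mmu-miR-302b-3p: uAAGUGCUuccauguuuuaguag
mmu-miR-302d-3p: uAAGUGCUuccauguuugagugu
The complement of this seed, AGCACTT on the transcribed strand, occurred in the 3′ UTR of the principal transcript of 2 of the 10 genes, Tet1 and Tet2. Of the 11961 tested coding genes with an annotated 3′ UTR, 16.5% held it. The shorter match to seed bases 2 to 7, GCACTT, which every longer match contains, occurred in 31.6% of these genes and, besides Tet1 and Tet2, in Dnmt3a at 2 places. The 3 longer sites, with the match in capitals and 5′ to 3′ along the mRNA, were these (GRCm38, minus strand):
Tet1, chr10:62811875-62811903: atattttaaaaAGCACTTtctacttttaa
Tet1, chr10:62805019-62805047: aaaatagttaaAGCACTTcatgacattaa
Tet2, chr3:133465904-133465932: tgtcttagaaaAGCACTTtgcctacctaa
The Tet1 matches begin at bases 640 and 7496 of a 3′ UTR of 7955 bases and the Tet2 match at base 816 of 3058. None of the 3 is followed by the A of an 8mer site. A match is a description of the sequence only, and the values of both genes are given with the TET genes.

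Summed counts per library ranged from 2441639 to 3570192 for nascent RNA, where 2 sequencing runs were added, and from 5724179 to 7369651 for total RNA. The floor of 3 counts was at most 1.23 CPM, and it covers counting error only. CPM values are scaled by TMM, whose factors lay between 0.92 and 0.94 in wild-type libraries and between 1.04 and 1.07 in Ddx6 KO libraries. Ddx6 itself had 333 to 391 CPM in wild-type total RNA, 57.2 and 67.7 CPM in clone 1 and 21.5 and 23.1 CPM in clone 2, below wild type in each KO library as labelled. Nascent Ddx6 RNA, at 242 to 270 CPM in wild type and 145 to 231 CPM in KO, did not pass with the clones pooled (-0.41 ± 0.32, edgeR adjusted p = 0.348). Set against wild type alone, clone 2 fell by 0.71 on the log2 scale (edgeR adjusted p = 1.92e-10) and clone 1 had -0.15 (edgeR adjusted p = 0.139). The clones differed in Ddx6 in nascent RNA (-0.56, clone 2 minus clone 1, edgeR adjusted p = 9.34e-05), total RNA (-1.49, edgeR adjusted p = 9.70e-16) and the ratio (-0.93, edgeR adjusted p = 0.00055). Of the 6 ESC markers looked at (Pou5f1, Sox2, Nanog, Zfp42, Esrrb and Klf4), the summed level in total RNA was 3059 to 3173 CPM in wild type and 3570 to 3790 CPM in KO. Nanog, Zfp42, Esrrb and Klf4 rose there by the test, while Pou5f1 and Sox2 did not pass. In nascent RNA the sums overlapped, at 4785 to 5228 CPM in wild type and 4915 to 5266 CPM in KO. There Sox2 fell (-0.65, edgeR adjusted p = 6.99e-16), Pou5f1, Nanog, Zfp42 and Esrrb rose and Klf4 did not pass. The 5 markers of the primed epiblast summed to 20.5 to 24.4 CPM in wild-type and 6.30 to 11.4 CPM in KO total RNA. Fgf5 was at or near 0, and Otx2 and Pou3f1 were both lower in KO by the test. Sox3 went the other way, at 0.370 to 0.765 CPM in wild-type and 0.795 to 2.61 CPM in KO total RNA. Lef1 had 0.765 to 2.04 CPM in wild type and at most 0.393 CPM in KO, and both were too low to be tested. The 4 two-cell-like markers (Zscan4c, Zscan4d, Zfp352, Tcstv3) summed to 6.06 to 7.78 CPM and 14.9 to 24.3 CPM. The 5 fibroblast markers summed to 3.33 to 5.73 CPM and 10.7 to 12.6 CPM, with Postn at 0 in all libraries and Col1a2 and Col3a1 at or near 0. The 4 primitive endoderm markers summed to 5.66 to 7.96 CPM in wild-type and 6.36 to 7.52 CPM in KO total RNA, but did not move together. Gata4 rose (0.65, edgeR adjusted p = 0.0283). Sox17 had 1.68 to 2.29 CPM in wild type and 0.154 to 1.05 CPM in KO. Gata6 had 0.555 to 1.15 and 0.154 to 0.393 CPM, and both were too low to be tested. The 4 trophectoderm markers summed to 35.4 to 41.4 CPM in wild-type and 50.4 to 64.9 CPM in KO total RNA, with Cdx2 and Elf5 at or near 0. Of the trophectoderm markers, Krt8 rose (0.94, edgeR adjusted p = 3.52e-11) and Eomes fell (-0.37, edgeR adjusted p = 0.0308) in total RNA, and both did so in nascent RNA (1.66 and -0.61). The part of these shifts in the changes below was not tested, and in bulk RNA fewer cells of a type and less RNA per cell cannot be told apart.

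Of the 10 genes, 9 changed in total RNA and 7 in nascent RNA, in both directions, while the ratio of total to nascent RNA changed in 2. Dnmt3a, Tet1, Tet2 and Zfp57 rose in both fractions, Dnmt3b, Dnmt3l and Trim28 fell in both, and Dnmt1 and Uhrf1 fell in total RNA. Tdg passed in no comparison. A change here is an adjusted p below 0.05 in the quasi-likelihood test of edgeR over all 14518 genes, with KO clones pooled. In nascent RNA 4 members were higher and 3 lower, against 20.6% and 21.0% of all genes. In total RNA 4 were higher and 5 lower, against 19.5% and 31.0%. In the ratio of total to 4sU, tested as the interaction of genotype and assay, 0 were higher and 2 lower, against 3.78% and 8.60%. None of the 10 also passed an absolute log2 fold change of 1, the threshold that 10.9% of genes passed in nascent RNA, 10.1% in total RNA and 1.08% in the ratio. The median log2 fold change of the 10 was 0.16 in nascent RNA, -0.06 in total RNA and -0.09 in the ratio, beside 0.00, -0.10 and -0.09 over all genes. KO and wild-type cultures did not overlap for 6 members in nascent RNA, 9 in total RNA and 3 in the ratio, beside 41.7%, 52.4% and 22.9% of all genes. With scaling by library size only, which shifted the median gene in nascent RNA by 0.21 on the log2 scale, 6 members were higher and 1 lower in nascent RNA. The shares of all genes called under that scaling are not given.

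**Figure D1:**
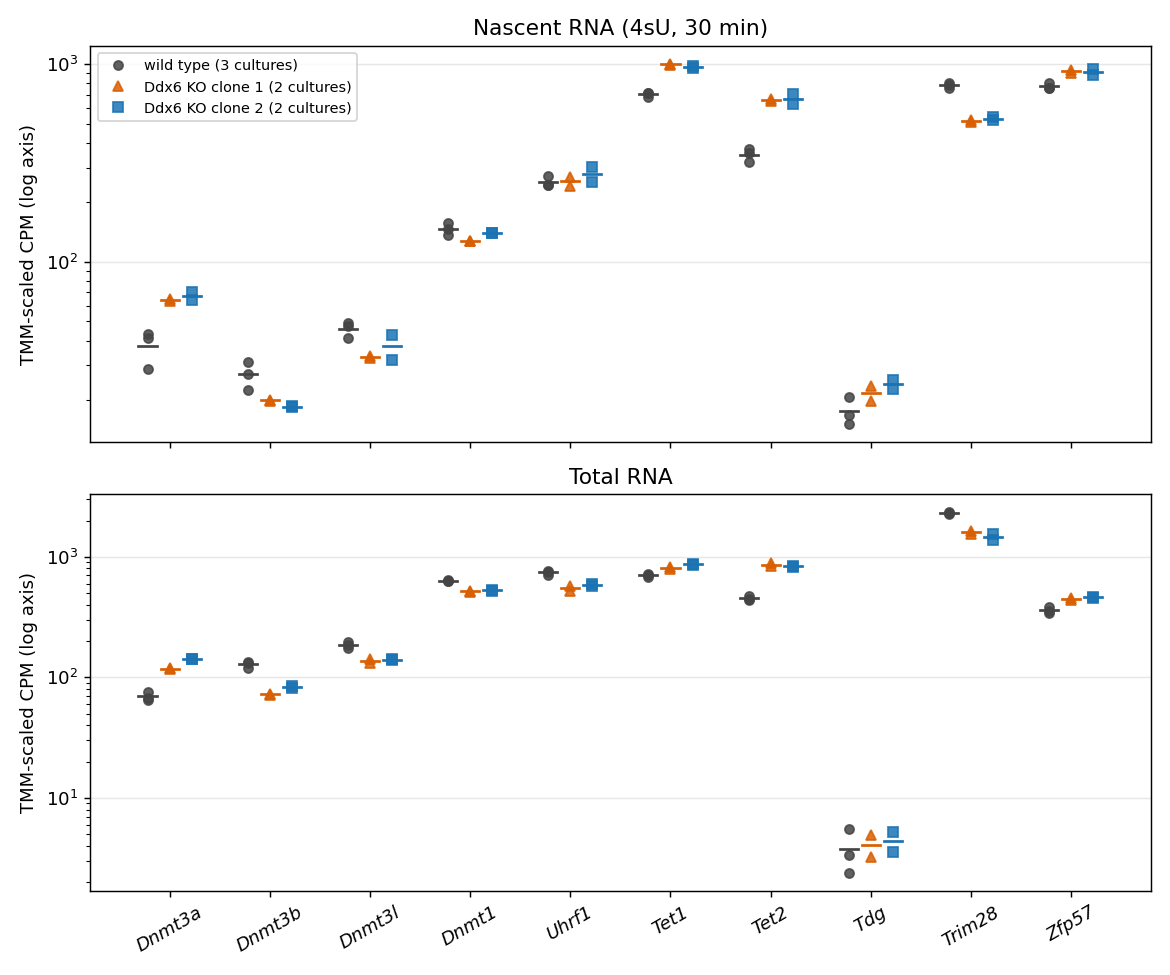
TMM-scaled CPM (log axis) of the 10 genes in every 4sU library (top) and total RNA library (bottom); points are cultures, bars are the mean of wild type (n = 3), KO clone 1 (n = 2) and KO clone 2 (n = 2). Dnmt3a and Tet2 sit above wild type in all 4 KO cultures in both panels, Trim28 and Dnmt3b below, and Tdg is the least abundant gene in total RNA, at 2.41 to 5.57 CPM.

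Among the de novo enzymes, the catalytic pair moved in opposite directions. Dnmt3a (chr12:3807030-3914443, plus strand, mm10) had 41.0, 43.4 and 28.8 CPM in wild-type nascent RNA, 65.1 and 63.6 in clone 1 and 70.1 and 63.8 in clone 2. In total RNA it had 67.9, 75.5 and 65.3 CPM in wild type, 117 and 119 in clone 1 and 143 and 142 in clone 2. All 4 KO cultures were above all 3 wild-type cultures in both fractions. The log2 fold change was 0.81 ± 0.12 (SE) in nascent RNA (1.75-fold, edgeR adjusted p = 1.20e-07) and 0.91 ± 0.08 in total RNA (1.87-fold, edgeR adjusted p = 4.96e-14). Its total-to-4sU ratio overlapped between genotypes, with a log2 difference of 0.10 ± 0.15 (edgeR adjusted p = 0.735).

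Dnmt3b (chr2:153649450-153687730, plus strand) had 131, 120 and 134 CPM in wild-type total RNA, 71.9 and 72.9 in clone 1 and 85.5 and 81.8 in clone 2. The groups did not overlap, and the log2 fold change was -0.72 ± 0.07, a level 1.64-fold higher in wild type (edgeR adjusted p = 1.18e-12). In nascent RNA it had 22.6 to 31.3 CPM in wild type and 18.4 to 20.1 CPM in KO, from 62 to 75 counts a library. That difference of -0.48 ± 0.14 passed the test (edgeR adjusted p = 0.0054), but not without wild-type culture 1 (log2 fold change -0.37, edgeR adjusted p = 0.0661), nor in the re-sequencing run alone (-0.30, edgeR adjusted p = 0.358) or with clone 1 alone (-0.41, edgeR adjusted p = 0.0538). Of 50-base windows in its transcript, 11.5% also occur in its paralog Dnmt3c, so its counts are uncertain to that extent.

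Dnmt3l (chr10:78042287-78063622, plus strand) had 174, 187 and 197 CPM in wild-type total RNA and 133 to 141 CPM in the 4 KO cultures, without overlap. The log2 fold change was -0.43 ± 0.06 (edgeR adjusted p = 7.96e-08). In nascent RNA it fell by 0.39 on the log2 scale (SE 0.11, edgeR adjusted p = 0.00322), with 1 KO culture, clone 2 culture 1 at 42.7 CPM, inside the wild-type range of 41.4 to 49.0 CPM. This call was lost with clone 2 alone (-0.31, edgeR adjusted p = 0.0686) and with the single-end run alone (-0.29, edgeR adjusted p = 0.103). Its total-to-4sU ratio differed by -0.04 ± 0.13 and that of Dnmt3b by -0.24 ± 0.16, and neither passed (edgeR adjusted p = 0.912 and 0.371).

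The balance of the pair is given per kilobase of exon, so that levels of different genes can be set side by side. The length holds all annotated exons of a gene and can exceed that of a single transcript. For Zfp57 it is 3382 bases, against 2597 in the principal transcript. Only uniquely mapped reads were counted, so comparisons between genes are approximate. The Dnmt3a level was 0.213 to 0.275 of the Dnmt3b level in wild-type total RNA and 0.710 to 0.759 in KO total RNA. In nascent RNA this ratio was 0.465 to 0.838 in wild type and 1.38 to 1.64 in KO. The 4 KO cultures were above the wild-type cultures in both fractions, and the mean in total RNA was 0.712 in clone 1 and 0.745 in clone 2. These ratios of pairs were formed after the fold changes had been seen and are a description, with no test.

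**Figure D2:**
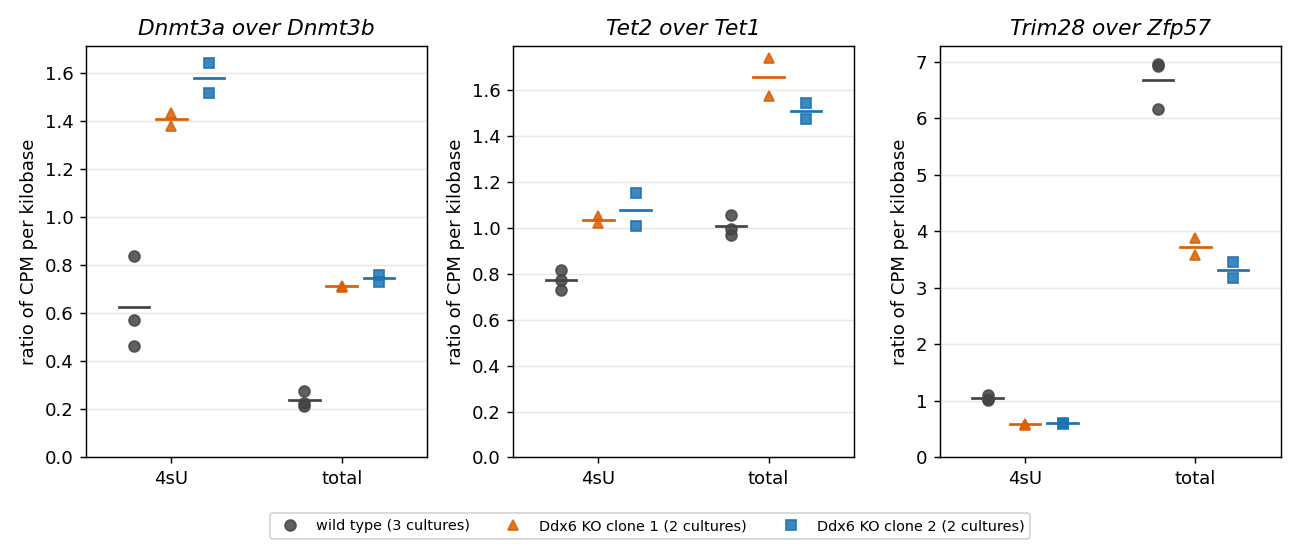
Ratio of the CPM per kilobase of 2 genes in each library, for nascent (4sU) and total RNA; points are cultures and bars are means of wild type (n = 3) and of each KO clone (n = 2). In total RNA, KO cultures lie above wild type for Dnmt3a over Dnmt3b (0.710 to 0.759 against 0.213 to 0.275) and Tet2 over Tet1 (1.48 to 1.74 against 0.970 to 1.06) and below it for Trim28 over Zfp57 (3.18 to 3.89 against 6.16 to 6.96).

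Both maintenance genes fell in total RNA with no called change in nascent RNA, and the ratio passed the test for Uhrf1. Uhrf1 (chr17:56303321-56323486, plus strand) had 706, 754 and 767 CPM in wild-type total RNA, 522 and 570 in clone 1 and 577 and 590 in clone 2. The log2 fold change was -0.40 ± 0.06, 1.32-fold higher in wild type (edgeR adjusted p = 2.60e-08). Nascent RNA had 245, 244 and 272 CPM in wild type and 269, 243, 303 and 253 CPM in KO, ranges that overlapped, with a log2 fold change of 0.07 ± 0.07 (edgeR adjusted p = 0.413). The log2 ratio of total to 4sU was 1.52, 1.62 and 1.495 in wild type, 0.96 and 1.23 in clone 1 and 0.93 and 1.22 in clone 2. All KO cultures were below all wild-type cultures.

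The ratio of Uhrf1 fell by 0.47 on the log2 scale (SE 0.09, edgeR adjusted p = 0.000107), the lowest value of the 10 members, and by 0.45 in clone 1 and 0.48 in clone 2 when each was set against wild type. Over the 22 alternatives the difference lay between -0.51 and -0.38 and passed in each. It was -0.45 with the single-end 4sU run and -0.49 with the re-sequencing run. Of 50-base windows in the Uhrf1 transcript 18.9% also occur in another gene, mostly in Gm5648, and their part in the difference was not tested.

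Dnmt1 (chr9:20907209-20959888, minus strand) had 630, 638 and 630 CPM in wild-type total RNA and 523, 513, 531 and 521 CPM in KO. Its log2 fold change was -0.28 ± 0.05 (edgeR adjusted p = 7.56e-06) and the groups did not overlap. By library size only, Dnmt1 had -0.12 in total RNA (edgeR adjusted p = 0.0463), with the median of all genes at 0.06 in place of -0.10. In nascent RNA it had 137 to 157 CPM in wild type and 127 to 140 CPM in KO, and the log2 fold change of -0.13 ± 0.07 did not pass (edgeR adjusted p = 0.112). Neither did the ratio (-0.14 ± 0.08, edgeR adjusted p = 0.291).

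**Figure D3:**
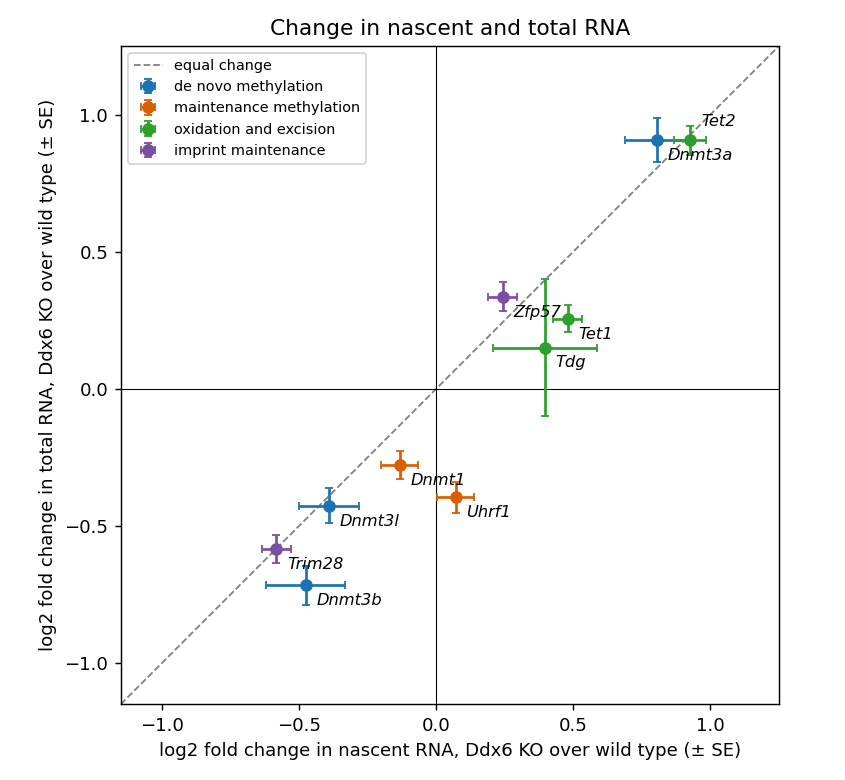
Log2 fold change, Ddx6 KO (n = 4) over wild type (n = 3), in nascent RNA (horizontal) and total RNA (vertical) for the 10 genes, with SE bars and coloured by role; the dashed line marks equal change. Dnmt3a and Tet2 lie at the upper right near the line, Dnmt3b, Trim28 and Dnmt3l at the lower left, and Uhrf1 at 0.07 in nascent RNA and -0.40 in total RNA lies below it.

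The oxidizing enzymes Tet1 and Tet2 rose in both fractions. Tet2 (chr3:133463679-133544390, minus strand) had 320, 353 and 374 CPM in wild-type nascent RNA, 654 and 669 in clone 1 and 703 and 630 in clone 2. In total RNA it had 476, 434 and 447 CPM in wild type, 882 and 835 in clone 1 and 844 and 828 in clone 2. The log2 fold change was 0.93 ± 0.06 in nascent RNA (edgeR adjusted p = 3.19e-20) and 0.91 ± 0.05 in total RNA (edgeR adjusted p = 2.48e-21). The total-to-4sU ratio differed by -0.02 ± 0.08 (edgeR adjusted p = 0.919). Groups were apart in both fractions and overlapped in the ratio.

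Tet1 (chr10:62804570-62899118, minus strand) had 684, 713 and 716 CPM in wild-type nascent RNA and 954 to 1002 CPM in KO, a log2 fold change of 0.48 ± 0.05 (edgeR adjusted p = 2.15e-11). In total RNA it had 681 to 719 CPM in wild type and 791 to 876 CPM in KO, a log2 fold change of 0.26 ± 0.05 (edgeR adjusted p = 2.06e-05). The log2 total-to-4sU ratio was 0.04, -0.07 and 0.01 in wild type, -0.34 and -0.26 in clone 1 and -0.16 in both cultures of clone 2. It fell by 0.22 (SE 0.07, edgeR adjusted p = 0.0303). This call was lost under 12 of 22 alternatives, among them DESeq2 (adjusted p = 0.0622), TMM within each assay (edgeR adjusted p = 0.266) and clone 2 alone (edgeR adjusted p = 0.356). It was also lost without wild-type culture 1, 2 or 3 and without either culture of clone 1, at log2 differences of -0.25 to -0.18. Per kilobase, the Tet2 level was 0.970 to 1.06 of the Tet1 level in wild-type total RNA and 1.48 to 1.74 in KO.

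Tdg (chr10:82629828-82650799, plus strand) had few counts and passed no test. It had 15.1 to 20.7 CPM in wild-type and 19.8 to 25.3 CPM in KO nascent RNA, but 2.41 to 5.57 and 3.27 to 5.24 CPM in total RNA, from 13 to 40 counts. The log2 fold changes were 0.40 ± 0.19 in nascent RNA, 0.15 ± 0.25 in total RNA and -0.25 ± 0.32 in the ratio, with edgeR adjusted p of 0.0863, 0.645 and 0.700. Of 50-base windows in its transcript 66.3% also occur in other genes, most of them in the processed pseudogene Tdg-ps, and the deposited counts hold uniquely mapped reads only. In wild-type 4sU libraries Tdg had 6.78 to 7.35 CPM (by library size) in the run of single-end 50-base reads and 23.6 to 34.1 CPM in the paired-end run, while total RNA was read in single-end reads only. Its total-to-4sU ratio therefore sets unlike reads side by side: relative to the median gene its log2 value in wild type was -1.02 with the single-end run and -3.08 with the paired-end run.

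The corepressor and the imprint-binding zinc finger protein changed in opposite directions. Trim28 (chr7:13024152-13031035, plus strand) was the most abundant of the 10 in total RNA, with 2337, 2270 and 2288 CPM in wild type, 1643 and 1560 in clone 1 and 1542 and 1391 in clone 2. In nascent RNA it had 758 to 802 CPM in wild type and 511 to 538 CPM in KO. The log2 fold change was -0.58 in both, with SE of 0.05 (edgeR adjusted p = 9.86e-14 in nascent and 5.63e-15 in total RNA), and the ratio differed by -0.00 ± 0.08 (edgeR adjusted p = 0.997). Groups were apart in both fractions.

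Zfp57 (chr17:37001163-37010635, plus strand) had 352, 340 and 387 CPM in wild-type total RNA and 441, 455, 464 and 455 CPM in KO. It had 759 to 803 CPM in wild-type and 886 to 941 CPM in KO nascent RNA. It rose by a log2 fold change of 0.34 ± 0.05 in total RNA (edgeR adjusted p = 2.83e-07) and 0.24 ± 0.05 in nascent RNA (edgeR adjusted p = 0.000151). Its ratio was higher in all KO cultures, at -1.04 to -0.96 against -1.16 to -1.05, but the difference of 0.09 ± 0.07 did not pass (edgeR adjusted p = 0.478). Per kilobase, the Trim28 level was 6.16 to 6.96 times that of Zfp57 in wild-type total RNA and 3.18 to 3.89 times in KO.

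Within wild type, the order of levels per kilobase differed between the fractions, with the limits of that scale given above. Per kilobase of exon, Trim28 (241 CPM per kilobase ± 6.83, SD, n = 3) and Zfp57 (229 ± 7.38) led in nascent RNA, with overlapping ranges. Uhrf1, Tet1, Tet2, Dnmt1 and Dnmt3l followed at 69.2, 49.0, 37.9, 23.3 and 17.2 CPM per kilobase, each apart from its neighbours. Dnmt3b, Tdg and Dnmt3a came last at 6.23, 4.96 and 3.81, with neighbouring ranges that overlapped. In total RNA the order was Trim28 at 708, Uhrf1 at 202, Zfp57 at 106, Dnmt1 at 100.4, Dnmt3l at 69.7, Tet2 at 49.1, Tet1 at 48.8, Dnmt3b at 29.7, Dnmt3a at 7.02 and Tdg at 1.07 CPM per kilobase. Here Zfp57 and Dnmt1 overlapped, as did Tet2 and Tet1, and the other neighbours were apart.

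The log2 ratio of total to 4sU in wild type spread over the members widely. Dnmt3b (2.24 ± 0.17, SD, n = 3), Dnmt1 (2.11 ± 0.11) and Dnmt3l (2.01 ± 0.05) had more total RNA per nascent RNA than 98.9%, 98.2% and 97.5% of tested genes. Trim28 (1.56 ± 0.02) and Uhrf1 (1.55 ± 0.07) were at percentiles 91.7 and 91.6, and Dnmt3a (0.89 ± 0.24) at 75.7. Tet2 (0.38 ± 0.17) and Tet1 (-0.01 ± 0.05) lay near the median gene, which had 0.07, at percentiles 59.1 and 47.8. Zfp57 (-1.11 ± 0.05) was at percentile 25.0. In KO, Uhrf1 (1.08 ± 0.16, n = 4) was at percentile 85.8, Dnmt3a at 82.9 and Tet1 at 42.7. These percentiles are descriptions, with no test. Relative to the median gene, the wild-type log2 ratio of Uhrf1 was 1.57 with the single-end 4sU run and 1.31 with the re-sequencing run. For Trim28 these values were 1.40 and 1.56, and for Tet1 -0.19 and 0.06. The SDs above are over cultures and leave out such differences between runs.

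**Figure D4:**
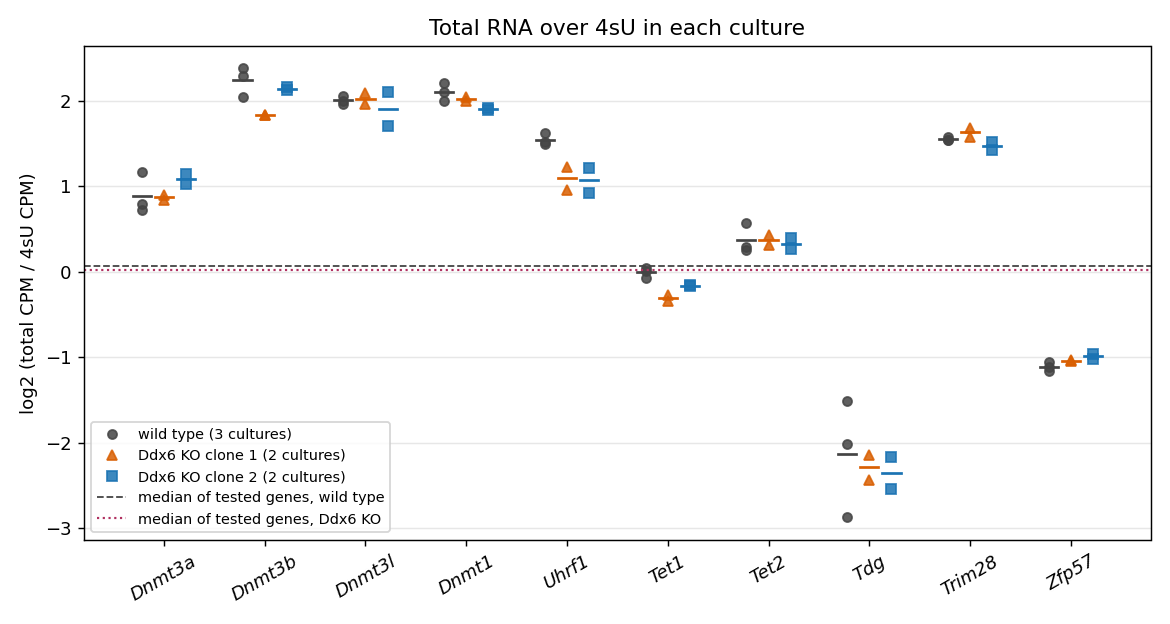
Log2 ratio of total to 4sU CPM (TMM-scaled, pseudocount 0.5 CPM) in each culture, with bars for the mean of wild type (n = 3), KO clone 1 (n = 2) and KO clone 2 (n = 2), and lines for the median of all tested genes. Uhrf1 is lower in every KO culture (0.93 to 1.23) than in wild type (1.495 to 1.62), and Tdg, whose wild-type values run from -2.87 to -1.51, is the most spread.

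No member differed between clone 2 and clone 1 in nascent RNA, total RNA or the ratio, beside 0.172%, 0.296% and 0.00689% of all genes (edgeR, adjusted p). DESeq2 and limma-voom also called 0 in each. At an unadjusted p below 0.05 there were 0, 2 and 0 members. The 2 were in total RNA: Dnmt3a, 0.27 ± 0.09 higher in clone 2 on the log2 scale (edgeR adjusted p = 0.282), and Dnmt3b, 0.21 ± 0.09 higher (edgeR adjusted p = 0.682). With 2 cultures a clone, a difference that misses the threshold does not show that the clones are alike.

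The wider machinery was followed in a list of 63 genes in 6 roles, of which 61 were tested. In nascent RNA 21 rose and 12 fell, with a median log2 fold change of 0.10. In total RNA 15 rose and 22 fell, with a median of -0.07. In the ratio 3 rose and 12 fell, with a median of -0.13. The medians over all genes were 0.00, -0.10 and -0.09. Of all genes 20.6% rose and 21.0% fell in nascent RNA, 19.5% and 31.0% in total RNA, and 3.78% and 8.60% in the ratio. By library size only the counts were 36 and 6 in nascent RNA, 26 and 16 in total RNA and 2 and 21 in the ratio, and by TMM within each assay they were 21 and 12, 21 and 18, and 5 and 7. Library size alone put the median of all genes at 0.21 in nascent RNA, 0.06 in total RNA and -0.14 in the ratio. The shares of all genes above are for TMM over all libraries, and those under these other scalings are not given.

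Of 9 partners of maintenance methylation 6 were lower and 2 higher in total RNA, beside 31.0% and 19.5% of all genes, in a list chosen with earlier results of these data known. Cdca7, the activator of the chromatin remodeller HELLS, had 206 to 220 CPM in wild-type and 104 to 123 CPM in KO total RNA (-0.91 ± 0.06, edgeR adjusted p = 7.36e-19). Dppa3, which restrains UHRF1, was near the floor, at 3.98 to 4.42 and 1.27 to 3.07 CPM (-1.04 ± 0.32, edgeR adjusted p = 0.0056), and in nascent RNA its difference of -1.46 ± 0.58 was lost under 10 alternatives. Usp7, a deubiquitinase that binds DNMT1 and UHRF1, had 856 to 901 CPM and 723 to 739 CPM in total RNA, while in nascent RNA it rose (0.19 ± 0.06). Its ratio fell by 0.46 (SE 0.08, edgeR adjusted p = 2.37e-05), as that of Uhrf1 did.

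In the oxidation and base excision list 4 of 17 tested genes rose and 6 fell in total RNA, near the 19.5% and 31.0% of all genes. Gadd45g was called higher but had at most 3 counts in wild-type total RNA, at 0.185 to 0.459 CPM against 1.05 to 2.23 CPM in KO, so no fold is given there. In nascent RNA it had 1.44 to 3.53 CPM in wild type and 5.09 to 9.93 CPM in KO (1.74 ± 0.38, edgeR adjusted p = 0.000157). The rises included Gadd45a (10.6 to 12.1 CPM in wild type and 35.3 to 45.3 CPM in KO, 1.84 ± 0.13, edgeR adjusted p = 1.61e-15) and Tet3, the TET enzyme of the oocyte. Gadd45 proteins are stress-induced and have been linked to active demethylation. Tet3 had 23.3 to 27.9 CPM in wild-type and 42.9 to 59.6 CPM in KO total RNA (0.94 ± 0.10, edgeR adjusted p = 4.05e-11), and in nascent RNA it rose by a log2 fold change of 0.75 ± 0.10. Gadd45b fell in nascent RNA (-0.79 ± 0.10, edgeR adjusted p = 2.47e-09). Polb, the polymerase of base excision repair, had the lowest ratio change of the list (-0.71 ± 0.16, edgeR adjusted p = 0.00134). Tet3, Gadd45a, Dppa3 and Mat2a lie on chromosome 6, on which none of the 10 members lies, and without chromosome 6 in the fit the counts of members were the same.

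The list of KRAB zinc finger repression and imprint genes had 11 of 16 higher and 0 lower in nascent RNA. It had 4 higher and 4 lower in total RNA, and 0 higher and 6 lower in the ratio. Over all genes these shares were 20.6% and 21.0%, 19.5% and 31.0%, and 3.78% and 8.60%. Its median ratio change was -0.30. Atrx, a chromatin remodeller of heterochromatin, had 690 to 718 CPM in wild-type and 433 to 480 CPM in KO total RNA, and its ratio fell by 0.53 (SE 0.08, edgeR adjusted p = 4.17e-06). The members Trim28 and Zfp57 had log2 ratio changes of -0.00 and 0.09, and neither passed the test.

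Among the 7 genes of methyl donor supply 5 fell and 1 rose in total RNA, where 31.0% of all genes fell and 19.5% rose. Shmt1, of the folate cycle, had 199 to 213 CPM and 111 to 125 CPM (-0.79 ± 0.06, edgeR adjusted p = 1.05e-16). Mat2a, which makes S-adenosylmethionine, the donor used by all DNMTs, had 213 to 252 and 313 to 359 CPM in total RNA with a nascent log2 fold change of 0.03 ± 0.06, and its ratio rose by 0.49 (SE 0.08, edgeR adjusted p = 2.30e-05). Of the methyl-CpG readers 3 of 7 rose and 1 fell in total RNA, and the ratio of Zbtb38 rose by 0.28 (SE 0.10, edgeR adjusted p = 0.0472), a call lost under 12 alternatives. Of the 5 genes of de novo methylation control 1 rose in total RNA and 0 fell, and the shares over all genes are those just given for both of these small lists.

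**Figure D5:**
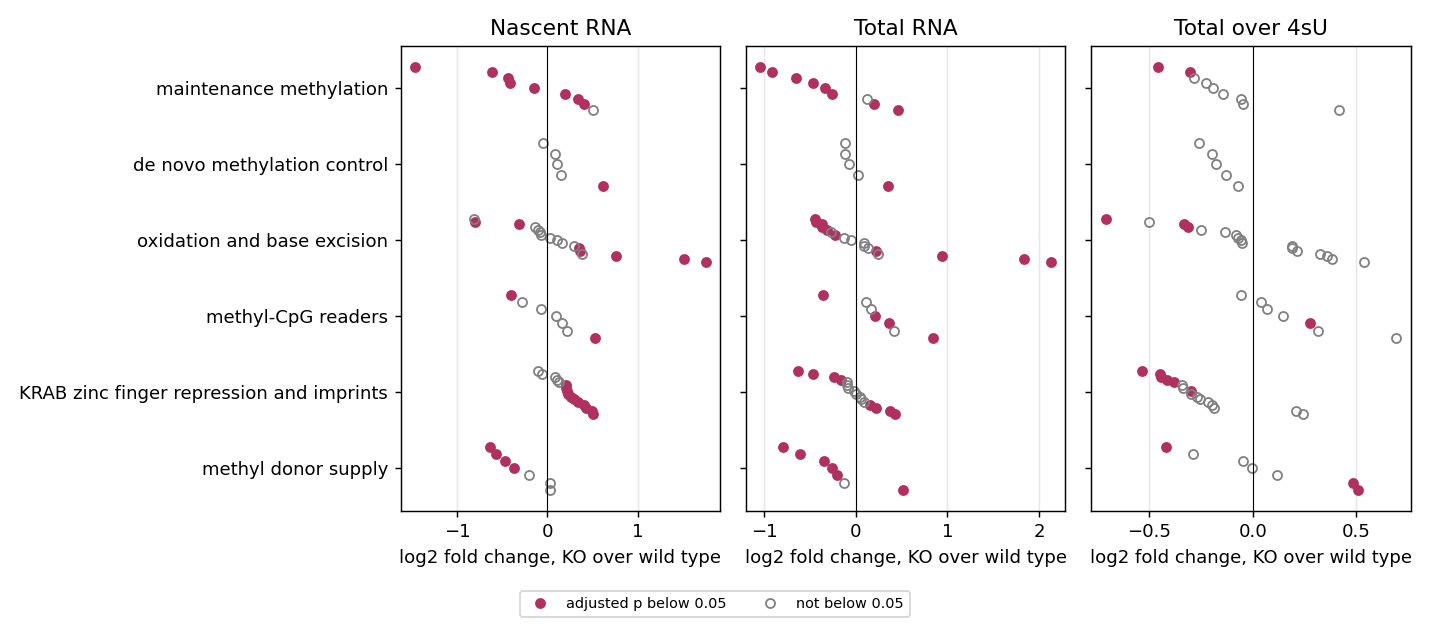
Log2 fold change, Ddx6 KO (n = 4) over wild type (n = 3), of the 61 tested genes of the wider machinery in nascent RNA, total RNA and total over 4sU, by role; filled points have an edgeR adjusted p below 0.05. In the KRAB zinc finger and imprint list, 11 of 16 genes are called higher in nascent RNA and 6 are called lower in the ratio.

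Genes outside both lists with the most similar pattern over the 7 total RNA libraries were named for the 3 members that changed most. Of 10740 candidates, Pearson's r of log2 CPM was highest with Dnmt3a for Arhgef3 (0.998), Rmnd5a (0.997) and Plk3 (0.996), with Tet2 for Pdpk1 (0.999), Klf6 (0.999) and Acsl5 (0.998), and with Dnmt3b for Nadk2 (0.998), Tnpo2 (0.997) and Zfp930 (0.996). The 7 libraries share the split into wild type and KO and the scaling, and these values are a description.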

How the data were processed

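The authors deposited raw read counts per gene for 14 libraries, a 4sU and a total RNA library from each of 7 cultures. Per the study's methods, reads were trimmed with Cutadapt, uniquely aligned to mm10 with STAR and counted by strand with featureCounts on Gencode M14. The 4sU libraries were sequenced again, and the counts of both runs were summed. ERCC spike-in rows held 0 counts and were dropped. Symbols and positions came from Gencode M21 on the same build.

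Counts were tested with edgeR 4.0.16 (R 4.3.3): robust quasi-likelihood fit, TMM over 14 libraries, at least 3 CPM in at least 3 libraries, Benjamini-Hochberg adjustment over 14518 genes and a threshold of 0.05. Contrasts were KO against wild type in nascent RNA, in total RNA and their interaction, and clone 2 against clone 1. Ratios per culture used a pseudocount of 0.5 CPM. DESeq2 1.42.0, limma-voom (limma 3.58.1), other scalings, filters, runs and left-out cultures were alternatives. Scripts were tested on simulated counts. Each culture's RNA was split into both fractions, per the labels and methods, and the residuals of its 2 libraries correlated at 0.0028 to 0.024.

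The members, the wider gene list and the markers were chosen with earlier results of these data known. All members were named. From the wider list the 3 largest rises and falls among called genes were named in each comparison, and for the 3 members with the largest change in total RNA the 3 most correlated genes were named. Some genes of the wider list are not reported here by name.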

Additional observations from a re-analysis of the deposited data

Results flagged for a closer look

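One value stood far from the rest of its group: nascent Dnmt3l in clone 2 culture 1 had a log2 value of 5.43, with the other 3 KO cultures at 5.02 to 5.09. Its gap to the nearest culture was 0.843 of the range of the 4. Of 30 groups of 4 KO cultures examined it was the only 1, and chance gives about 1 in 20.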

How the results depend on the processing

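No result reversed under the alternatives run. Of the members' log2 fold changes under alternatives, 597 kept their call, 19 lost it and 4 gained it. Members lower in nascent RNA were 3, but 1 by library size only and 2 to 3 with a culture left out. Members lower in total over 4sU were 2, but 1 with DESeq2, TMM within each assay, DESeq2 size factors, no filter, the stricter filter, clone 2 alone or the single-end run only, and 1 to 2 with a culture left out; the member lost was Tet1. The 4 gained were Dnmt1 in nascent RNA with DESeq2 (-0.16, adjusted p = 0.0359) and with its size factors in edgeR (-0.16, adjusted p = 0.0436), and Uhrf1 (0.28) and Tdg (0.60) in nascent RNA by library size only. Nascent Dnmt3b (-0.27) and Dnmt3l (-0.19) lost their calls by library size only. In the wider list, library size only gave 36 higher and 6 lower in nascent RNA, 26 higher in total RNA and 21 lower in the ratio; TMM within each assay gave 5 higher and 7 lower in the ratio, clone 2 alone gave 7 lower, and leaving out a culture gave 1 to 4 higher and 9 to 14 lower. The cause of these shifts was not tested, and the shares of all genes called under these alternatives are not given. With the replicate number as a block, members were 4 higher and 3 lower in nascent RNA, 4 and 5 in total RNA and 0 and 2 in the ratio. Residuals, the log2 values of a library minus the mean of its group (wild type or 1 clone, in 1 assay), correlated at -0.07 to 0.098 between same-numbered libraries. Between the 4sU and total RNA libraries of the same culture, which belong together, the residuals correlated at only 0.0028 to 0.024. With 2 cultures a clone, the residuals of both cultures mirror each other, so both give the same value. This check therefore cannot show whether the numbers pair cultures. With the culture as a block, 0 members were higher and 2 lower in the ratio, and 4 and 17 genes of the wider list. Low counts limit Tdg and nascent Dnmt3b.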
